A study of Bos taurus with 20 samples.

Results

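The type I interferon region of bovine chromosome 8 was described in whole conceptuses of ovoid or tubular shape that had been exposed as early embryos to interleukin 6 (IL6) or to its carrier. The genes were chosen by a rule that uses position and structure alone, though with earlier results of these data known. They are annotated on chromosome 8 of the assembly ARS-UCD1.2 with a first base from 21500000 to 23200000, a single exon and a length of 450 to 1500 bases. This rule took 18 of the 27607 genes in the deposited tables. They lie between 22530903 and 23199921.

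Type I interferons are small secreted proteins that act through a shared cell surface receptor and switch on antiviral genes. Their genes mostly lack introns and stand in clusters of similar copies. In cattle and other ruminants the cluster also holds interferon tau, which the trophectoderm of the elongating conceptus secretes and which signals pregnancy to the mother. IL6 is a cytokine that acts on cells through STAT transcription factors.

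The series holds 20 conceptuses, with 1 library of RNA depleted of ribosomal RNA from each. Embryos fertilised in vitro received recombinant bovine IL6 at 100 ng/ml, or the carrier alone, on day 5 and were collected as blastocysts for transfer on day 7.5. The groups were 4 tubular IL6, 4 tubular control, 6 ovoid IL6 and 6 ovoid control conceptuses. There were 2 females and 2 males among tubular IL6, 1 female and 3 males among tubular control, 4 females and 2 males among ovoid IL6, and 3 females and 3 males among ovoid control conceptuses. The labels give neither the age of the conceptuses nor the meaning of a code that opens each title. IL6 conceptuses carry the codes c6186 (2 tubular, 4 ovoid) and c9007 (2 tubular, 2 ovoid). Controls carry c5036 (2 tubular, 2 ovoid), c8086 (2 tubular) and c201 (4 ovoid), so treatment and title code cannot be told apart. Among controls only c5036 holds both shapes, so shape and title code are partly mixed there.

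Libraries held 4845404 to 11366747 counts in genes for tubular IL6, 6997220 to 12138818 for tubular control, 2298491 to 10296130 for ovoid IL6 and 329666 to 13940103 for ovoid control conceptuses. The lowest total was that of ovoid control replicate 3. Across genes, it correlated with another library at a median Spearman rho of 0.761, where all others reached 0.920 to 0.960. In this library 3 counts are worth 8.77 CPM (counts scaled to a common library size with TMM factors), so a low or zero level there says little.

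The tables name the genes by Ensembl identifier only, and none of the 27607 identifiers could be matched to a symbol. The RefSeq gene table of another assembly, ARS-UCD2.0, lists 73 genes between MTAP and HACD4, the genes that flank the interferon cluster. Of these, 14 have symbols that open with IFN, among them IFNE, IFNW1, IFNB1, IFNB3, IFNAC, IFNAD, IFNAG, IFNAH and the interferon tau entries IFN-TAU, IFN-tau-c1, IFNT2 and IFNT3. Which identifier of the 18 is which of these was not determined, so no interferon name is given to any of them. Whether trophectoderm or other cell types made up different shares of the conceptuses was not tested either, since the marker genes are known by symbol.

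The 18 genes shared more than the rule asked for. Exon lengths ran from 570 to 1313 bases, with 5 genes of 588 bases, 3 of 638, 3 of 570 and 2 of 582. Several lengths thus recur exactly. The upper bound of the window falls inside a run of genes of 638 bases: the next 3 of them, from 23202997 to 23211059, lie outside and had at most 1 count in all. The nearest single-exon gene of such length before the window starts at 18576404. On the plus strand lie 8 genes and on the minus strand 10, and 0 of the 18 overlap another annotated gene. The 5 genes with the most counts all lie on the minus strand.

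Most of the region was silent or nearly so in the counted reads. Only 5 of the 18 genes reached 10 counts in any library, 10 genes had at most 1 to 9 counts in any library, and 3 had no count in any of the 20 libraries. The 3 genes without a count, ENSBTAG00000055306, ENSBTAG00000049948 and ENSBTAG00000055103, lie side by side from 23191860 to 23199921 and are each 638 bases long. The share of genes that reached 10 counts was 27.8% in the region, against 27.2% (514 of 1889) of single-exon genes of the same lengths elsewhere. The share with no count was 16.7% in the region and 26.7% elsewhere. Reads with several alignments carry no option in the counting command, and were therefore not counted. A gene with a near-identical copy is thus underestimated, and a count of 0 does not show that it was off.

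All 18 genes together held 27325 counts over the 20 libraries, which is 0.0173% of the counts assigned to genes. The uppermost gene held 78.5% of these counts and the first and second together 93.1%.

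**Figure D1:**
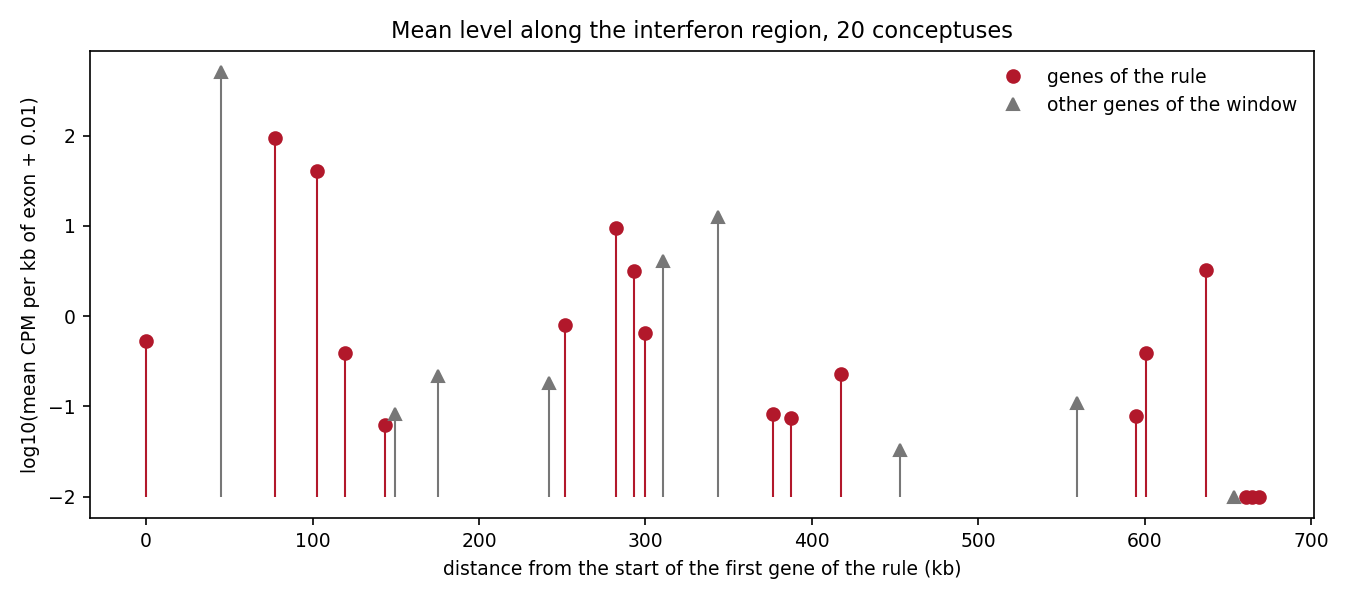
Mean level over the 20 conceptuses (log10 of CPM per kb of exon plus 0.01, vertical axis) against the distance in kb from the start of the first gene of the rule. Red circles are genes of the rule and grey triangles other annotated genes. One red gene at 94.9 CPM per kb and one at 41.0 stand above the others of the rule, and a grey gene with 2 exons at 508 CPM per kb stands highest.

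The gene with the highest level was ENSBTAG00000053027 (22608434 to 22609746, minus strand, 1313 bases). Its level was 102, 136, 138 and 94.1 CPM in tubular IL6 conceptuses, against 277, 214, 122 and 174 CPM in tubular controls. In ovoid IL6 conceptuses it was 4.82, 280.3, 171, 90.8, 33.4 and 35.7 CPM (median 63.3), against 136, 92.6, 5.85, 89.2, 215 and 78.6 CPM (median 90.9) in ovoid controls. Among the 8 tubular conceptuses its 3 highest values were those of controls, while the ovoid groups held both the highest and the lowest values of the series. All groups overlapped in range.

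Group means of ENSBTAG00000053027 were 118 ± 22.9 CPM in tubular IL6, 197 ± 65.5 CPM in tubular control (SD, n = 4 each), 103 ± 105 CPM in ovoid IL6 and 103 ± 69.4 CPM in ovoid control conceptuses (SD, n = 6 each). Per kb of exon, its mean over all conceptuses was 94.9 CPM, which placed it at rank 856 of all genes.

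ENSBTAG00000053469 (22633306 to 22633893, minus strand, 588 bases) came second, at 24.1 CPM or 41.0 CPM per kb on average. It measured 36.9, 29.4, 29.3 and 15.7 CPM in tubular IL6 conceptuses, against 39.6, 24.8, 30.5 and 42.7 CPM in tubular controls. In ovoid IL6 conceptuses the lowest, median and highest values were 0.658, 14.0 and 50.6 CPM, against 0, 21.5 and 30.2 CPM in ovoid controls. The same ovoid IL6 conceptus, replicate 2, was highest for this gene and for ENSBTAG00000053027. Means were 27.8 ± 8.81 CPM in tubular IL6 and 34.4 ± 8.21 CPM in tubular control (SD, n = 4 each), and 19.6 ± 17.9 CPM in ovoid IL6 and 19.3 ± 10.6 CPM in ovoid control conceptuses (SD, n = 6 each).

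The other 3 tested genes were far lower. ENSBTAG00000047698 (22813247 to 22813828, minus strand, 582 bases) averaged 5.50 CPM, or 9.45 CPM per kb. It measured 6.40, 1.58, 7.53 and 5.10 CPM in tubular IL6 conceptuses, against 2.64, 7.89, 5.80 and 14.3 CPM in tubular controls. In ovoid IL6 conceptuses it ran from 0.438 to 10.6 CPM with a median of 5.49, against 0 to 7.25 CPM with a median of 5.23 in ovoid controls. The medians of the ovoid groups lay close together and all groups overlapped.

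ENSBTAG00000053413 (23167683 to 23168546, minus strand, 864 bases) lies toward the far end of the region and averaged 2.80 CPM or 3.24 CPM per kb. It measured 2.21, 6.17, 2.88 and 1.34 CPM in tubular IL6 conceptuses, against 2.73, 1.59, 5.95 and 2.95 CPM in tubular controls. Ovoid IL6 conceptuses ran from 1.59 to 4.62 CPM with a median of 2.10, and ovoid controls from 0 to 4.47 CPM with a median of 2.06. Its level was low in every group, and all groups overlapped.

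ENSBTAG00000054099 (22823867 to 22824454, minus strand, 588 bases) averaged 1.84 CPM or 3.14 CPM per kb. It measured 2.21, 0.158, 3.98 and 1.59 CPM in tubular IL6 conceptuses, against 1.32, 3.36, 0.916 and 5.53 CPM in tubular controls. Ovoid IL6 conceptuses ran from 0 to 5.28 CPM with a median of 1.29, and ovoid controls from 0 to 2.54 CPM with a median of 1.11. The gene was detected in 18 of the 20 libraries and its groups overlapped.

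The next genes by mean CPM rest on a handful of reads and were too low to test. ENSBTAG00000055152 had at most 9 counts in any library and at most 0.944 CPM. ENSBTAG00000039069 had 7 counts each in ovoid IL6 replicates 1 and 2, near 1.54 CPM in both, and at most 0.633 CPM elsewhere. ENSBTAG00000048891 ranked sixth only through 3 counts, or 8.77 CPM, in the shallow ovoid control replicate 3, and had at most 1 count in any other library.

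**Figure D2:**
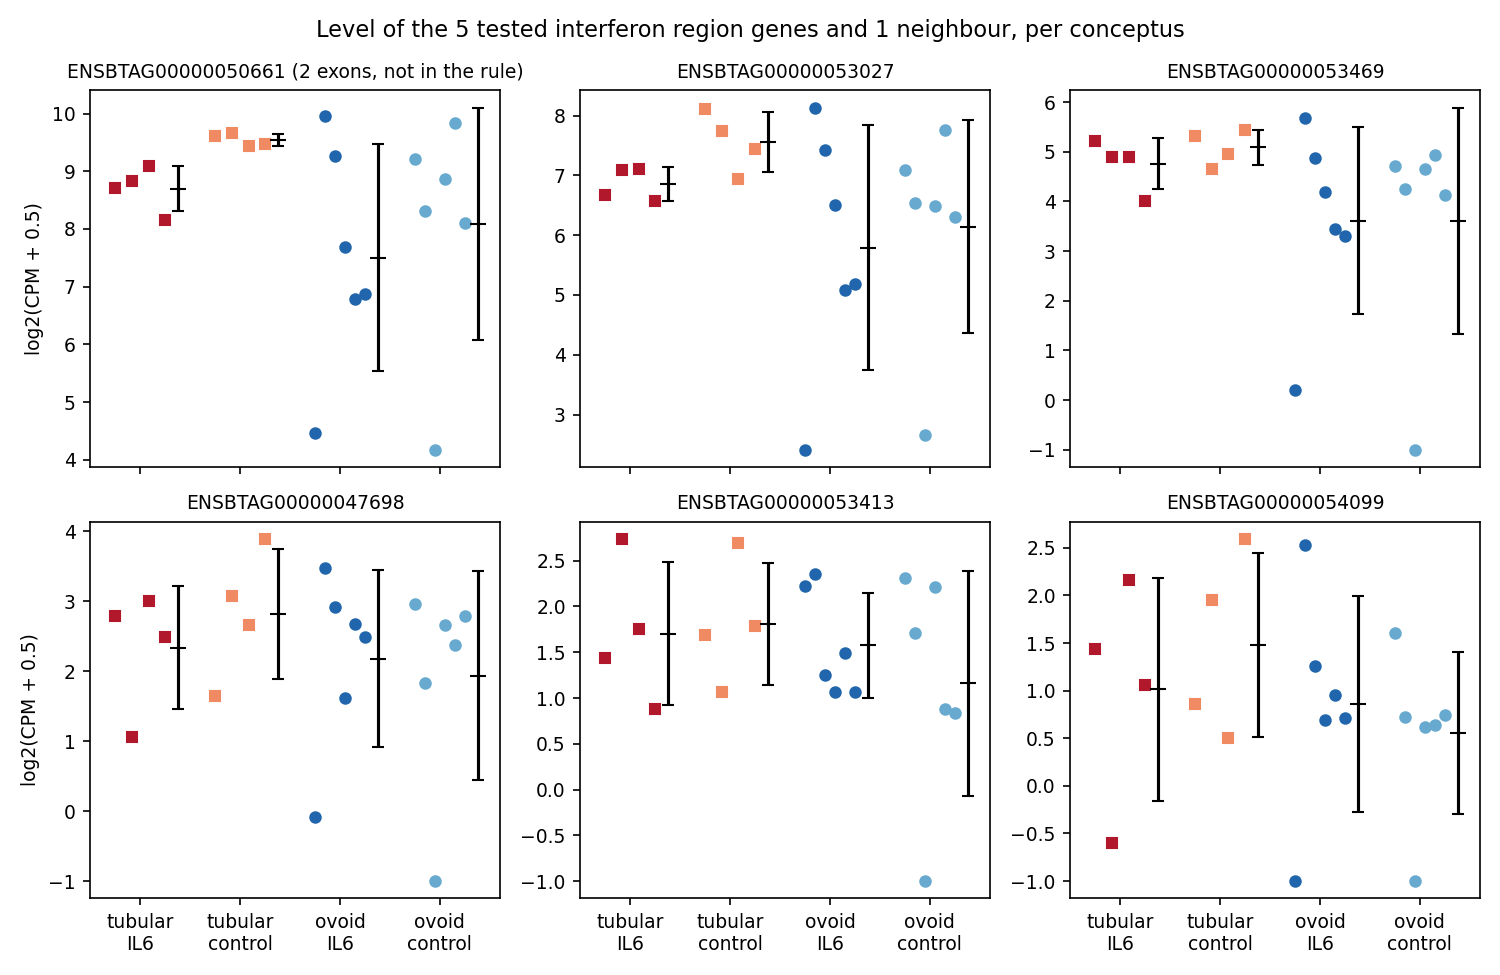
Level of 6 genes in each conceptus, as log2(CPM + 0.5) on the vertical axis, by group on the horizontal axis (squares tubular, circles ovoid, black bars mean ± SD). In the panels of ENSBTAG00000050661, ENSBTAG00000053027 and ENSBTAG00000053469, 1 conceptus in each ovoid group lies far below the rest, and of these 3 genes only ENSBTAG00000050661 separates tubular IL6 from tubular control conceptuses.

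Summed over the 18 genes, the level was 157 ± 29.0 CPM (119 to 183) in tubular IL6 and 246 ± 64.8 CPM (167 to 325) in tubular control conceptuses (SD, n = 4 each). It was 134 ± 129 CPM (11.8 to 355) in ovoid IL6 and 133 ± 78.5 CPM (17.5 to 254) in ovoid control conceptuses (SD, n = 6 each). The mean of the log2 sum was lower by 0.63 in tubular IL6 than in tubular control conceptuses (difference -0.63), and the ovoid difference was -0.34. Between shapes the tubular mean exceeded the ovoid mean by 0.92 under IL6 and by 1.21 in controls, on the log2 scale. These are differences of a sum chosen here and carry no test. In whole conceptuses, fewer cells that transcribe a gene and less RNA per cell cannot be told apart.

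The ovoid values rest in part on single conceptuses. Without ovoid IL6 replicate 1 and ovoid control replicate 3, the lowest of their groups, the summed level was 158 ± 128 CPM in ovoid IL6 and 156 ± 61.0 CPM in ovoid control conceptuses (SD, n = 5 each). Leaving out ovoid IL6 replicate 1 alone turned the ovoid log2 difference between IL6 and control to 0.22, and leaving out ovoid control replicate 3 alone gave -0.85. The shape difference under IL6 was 0.36 without ovoid IL6 replicate 1 and 1.35 without ovoid IL6 replicate 2. In controls it was 0.70 without ovoid control replicate 3 and 1.47 without ovoid control replicate 5. The sum in ovoid control replicate 3 rests on 6 counts.

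By title code, the summed level was on average 164 CPM for c6186 and 151 CPM for c9007 among tubular IL6 conceptuses, against 289 CPM in c5036 and 204 CPM in c8086 among tubular controls. In ovoid IL6 conceptuses the 4 of c6186 averaged 174 CPM and ran from 11.8 to 355, while the 2 of c9007 had 53.3 and 54.9 CPM. Ovoid controls averaged 179 CPM in c5036 and 110 CPM in c201. Both tubular IL6 codes thus lay below both tubular control codes, and the means of the ovoid IL6 and ovoid control codes interleaved. Of the 3 title codes that hold both shapes, ENSBTAG00000053027 averaged 119 CPM in tubular and 137 CPM in ovoid conceptuses of c6186, 116 CPM in tubular and 34.6 CPM in ovoid conceptuses of c9007, and 246 CPM in tubular and 147 CPM in ovoid conceptuses of c5036. The shapes thus did not keep one order within every code.

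For the first and second genes the spread among conceptuses was larger in the ovoid than in the tubular groups. The SD of log2(CPM + 0.5) of ENSBTAG00000053027 was 0.28 in tubular IL6, 0.50 in tubular control, 2.05 in ovoid IL6 and 1.78 in ovoid control conceptuses. The medians of this SD over all 14875 tested genes were 0.42, 0.36, 0.51 and 0.69 in the same groups. A lower SD was found for 28.2% of tested genes in tubular IL6, 70.3% in tubular control, 98.4% in ovoid IL6 and 92.3% in ovoid control conceptuses. In tubular IL6 conceptuses the gene thus varied less than the median gene. ENSBTAG00000053469 had SDs of 0.52 in tubular IL6, 0.35 in tubular control, 1.89 in ovoid IL6 and 2.28 in ovoid control conceptuses.

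Part of this spread rests on the lowest conceptus of each ovoid group. Without these, the SD of ENSBTAG00000053027 was 1.35 in ovoid IL6 and 0.59 in ovoid control conceptuses, where medians over all tested genes were 0.43 and 0.34. The SD in ovoid IL6 conceptuses then still exceeded that of 95.8% of tested genes. For ENSBTAG00000053469 it was 0.99 in ovoid IL6 and 0.34 in ovoid control conceptuses without them. Without replicate 1, ovoid IL6 values of ENSBTAG00000053027 were 33.4 and 35.7 CPM in title code c9007, against 90.8 to 280.3 CPM in c6186. Spread within and between title codes was not separated.

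The low genes varied otherwise. SDs of ENSBTAG00000047698 were 0.88 in tubular IL6, 0.93 in tubular control, 1.27 in ovoid IL6 and 1.49 in ovoid control conceptuses, and those of ENSBTAG00000053413 were 0.78, 0.67, 0.58 and 1.23 in the same groups. For ENSBTAG00000054099 they were 1.17, 0.97, 1.14 and 0.85. In both ovoid groups the SD thus exceeded that of both tubular groups for the 3 highest genes, and not for the other 2. Without the lowest conceptus of each ovoid group, this held for ENSBTAG00000053027 alone. No test of a difference in spread was made.

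The biological coefficient of variation that edgeR fits within groups takes account of counting noise. It was 0.768 for ENSBTAG00000053027, 2.11 times the trend of genes at its level, and 0.685 for ENSBTAG00000053469, 1.66 times the trend. ENSBTAG00000047698 at 0.625, ENSBTAG00000054099 at 0.733 and ENSBTAG00000053413 at 0.538 lay near their trends of 0.572, 0.623 and 0.609. The median over all tested genes was 0.358.

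**Figure D3:**
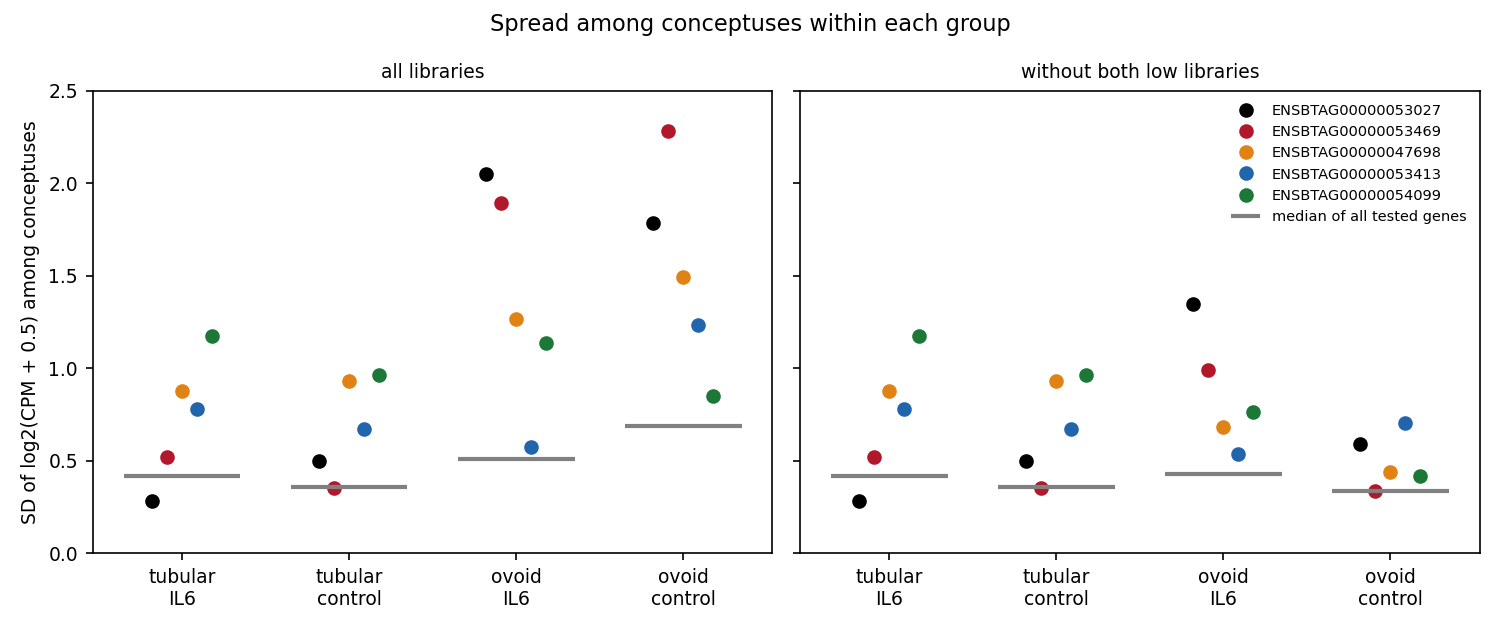
SD of log2(CPM + 0.5) among the conceptuses of each group for the 5 tested genes (coloured points), with the median of all tested genes as grey bars, in all libraries on the left and without the lowest conceptus of each ovoid group on the right. ENSBTAG00000053027 stands at 2.05 in ovoid IL6 conceptuses with all libraries and at 1.35 without the lowest ones.

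Ovoid IL6 replicate 1 was low for some genes of the window only, at a depth of 5032351 counts. ENSBTAG00000053027 had 22 counts there, or 4.82 CPM, against 33.4 to 280.3 CPM in the other 5 ovoid IL6 conceptuses. ENSBTAG00000053469 had 3 counts and ENSBTAG00000054099 had 0. ENSBTAG00000053413 was at 4.17 CPM in the same library, above the median of 1.89 CPM in the other 5. Of the neighbouring genes, ENSBTAG00000050661 was at 21.5 CPM against a median of 205, and ENSBTAG00000052735 at 4.38 CPM against a median of 8.65 and a lowest value of 6.37 in the other 5. ENSBTAG00000025929 was at 84.2 CPM, just below the lowest of the other 5 at 87.5, and ENSBTAG00000012375 at 40.8 CPM, above their median of 32.3. The low level in this conceptus was thus not shared by all genes of the window. The median Spearman rho of this library against another was 0.926, near the low end of the range of the rest. Its sample quality weight in limma was 0.226, close to the lowest of all, 0.222 in ovoid control replicate 3. The highest weight was 2.95. Whether the quality of this library bears on its low genes was not tested.

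The first and second genes of the region moved together across conceptuses. Pearson's r of log2(CPM + 0.5) between ENSBTAG00000053027 and ENSBTAG00000053469 was 0.953 and Spearman's rho 0.862 over 20 conceptuses (permutation p = 1e-05, the smallest that 100000 permutations can give, adjusted p = 6.0e-05 over 6 pairs). Without the conceptuses farthest from the median, ovoid IL6 replicate 1 and ovoid control replicate 3, r was 0.878 and rho 0.812 over 18 (permutation p = 3.0e-05, adjusted p = 1.8e-04). After subtraction of title code means r was 0.962. Values from one library share its depth, and reads with several alignments were counted for neither gene, so the pair is not independent in its errors.

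Of the other 5 pairs among the 4 highest genes, none kept an adjusted p under 0.05 without those conceptuses. For ENSBTAG00000053027 and ENSBTAG00000047698, r was 0.742 over 20 conceptuses (permutation, adjusted p = 0.00326) and 0.142 over 18 (permutation p = 0.574), so that relation rests on those conceptuses. After subtraction of title code means it was 0.783 over 20 and 0.446 over 18. ENSBTAG00000053413 had an r of 0.382 with ENSBTAG00000053027 over 20 conceptuses and 0.233 over 18. Over the 18 conceptuses ENSBTAG00000053027 took 60.9% to 85.4% of the summed level, with a median of 77.1%. Its ratio to ENSBTAG00000053469 ran from 2.76 to 8.62 with a median of 4.86.

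**Figure D4:**
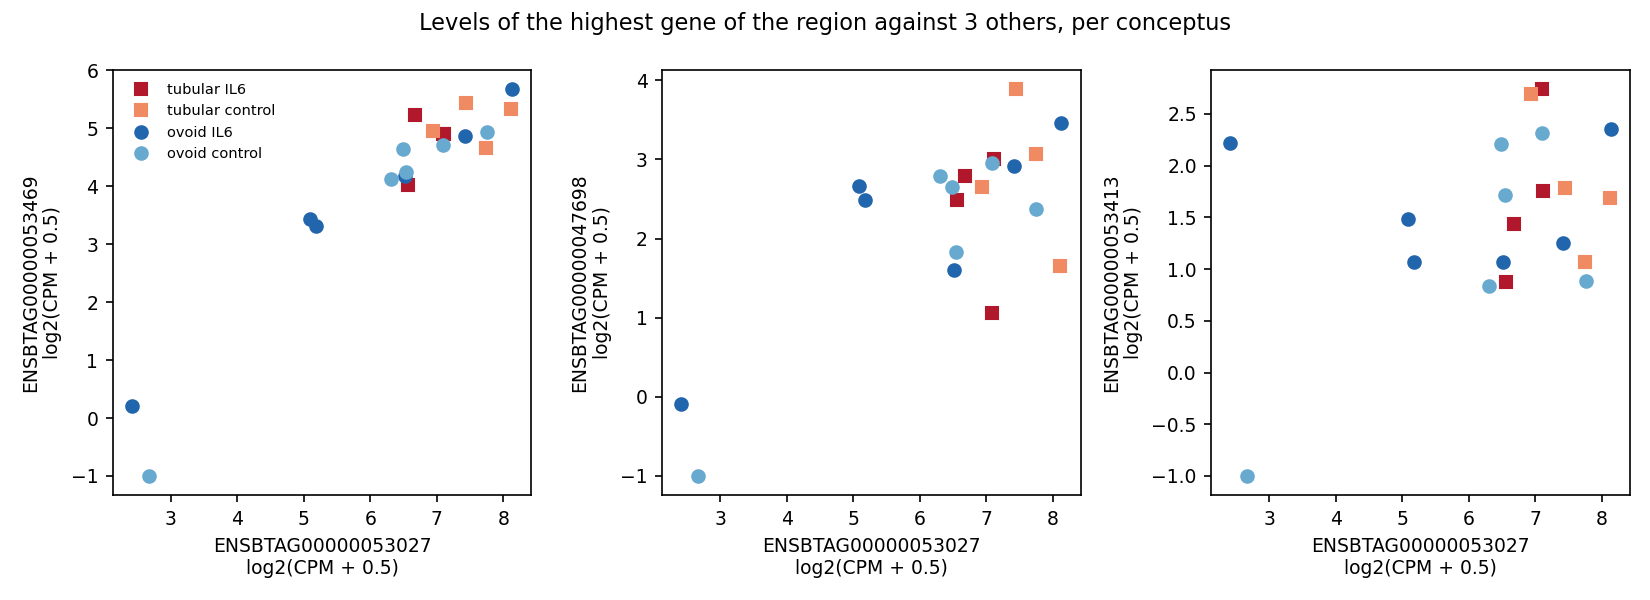
Level of ENSBTAG00000053027 (horizontal axis) against 3 other genes of the region (vertical axes), both as log2(CPM + 0.5), with 1 point per conceptus (red squares tubular, blue circles ovoid). Points follow a line in the first panel, where r was 0.953 over 20 and 0.878 over 18 conceptuses, and scatter in the others once the points at the lower left are set aside.

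Whether IL6 altered the region was asked within each shape. Of the 18 genes, 5 passed the filter on low counts and were tested with edgeR's quasi-likelihood model over 14875 genes. In tubular conceptuses, 0 of the 5 passed an adjusted p of 0.05, as did 0% of all tested genes, and 0 had an unadjusted p under 0.05, against 2.51% of all. DESeq2 called 0 of the 5 and 0% of all, and gave 0 of the 5 an unadjusted p under 0.05, against 4.31% of all. All 5 fold changes were negative, with a median log2 fold change of -0.26, against 0.0016 over all tested genes, of which 50.2% were positive. Here and below, the signs of the 5 genes are not independent. The genes share their libraries, and the first and second moved together. ENSBTAG00000053027 differed by -0.64 ± 0.83 on the log2 scale (SE, edgeR adjusted p = 0.9997), with a 95% interval of -2.37 to 1.09. The interval thus reaches from levels far below those of controls to levels above them. ENSBTAG00000053469, ENSBTAG00000047698, ENSBTAG00000054099 and ENSBTAG00000053413 had log2 fold changes of -0.26 ± 0.71, -0.49 ± 0.68, -0.13 ± 0.85 and -0.090 ± 0.60 (SE). Fitted on the tubular conceptuses alone, ENSBTAG00000053027 had -0.73 (edgeR unadjusted p = 0.0407, adjusted p = 0.727). An exact two-sided permutation test on this gene gave p = 0.0857, where 4 against 4 allow no p below 0.0286.

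In ovoid conceptuses no gene of the region passed the test between IL6 and control, and the size of the fitted differences depended on the setting. Of the 5 genes, 0 were called, as were 0% of all tested genes, and 0 had an unadjusted p under 0.05 by edgeR, against 8.34% of all. DESeq2 called 0 of the 5, against 0.589% of all genes, with 0 at an unadjusted p under 0.05, against 10.2% of all. Fold changes were positive for 3 genes and negative for 2, with a median of 0.027 on the log2 scale, against 0.015 over all tested genes, of which 51.7% were positive. The smallest p on the positive side was that of ENSBTAG00000054099, at 0.56 ± 0.72 (SE, edgeR adjusted p = 0.914), and on the negative side that of ENSBTAG00000053469, at -0.091 ± 0.58 (SE, edgeR adjusted p = 0.998). ENSBTAG00000053027 had -0.044 ± 0.65 (SE) with a 95% interval of -1.40 to 1.31. Without title code c9007 this value was 0.35, without c6186 -1.58 (edgeR unadjusted p = 0.0534) and without c201 -0.60, and with the title code as a random block it was -1.11. Without ovoid IL6 replicate 2 it was -0.93 and without ovoid control replicate 5 it was 0.43. ENSBTAG00000053469 was at 0.21 without c9007, -1.15 without c6186, -1.20 with the random block and -1.02 with sample quality weights (limma unadjusted p = 0.0179, adjusted p = 0.698). Neither the sign nor the size of these differences is therefore settled. ENSBTAG00000054099 turned to -0.077 with the random block and to -0.21 without ovoid IL6 replicate 2.

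Over both shapes 0 of the 5 were called for IL6 against control, as were 0% of all genes, and 0 had an unadjusted p under 0.05 by edgeR or DESeq2, against 10.7% of all genes by edgeR and 14.1% by DESeq2, which called 0.98% of all. Of all genes 49.5% had a positive fold change. ENSBTAG00000053027 had a fitted log2 value of -0.34 ± 0.53 (SE, edgeR adjusted p = 0.859) and ENSBTAG00000054099, the 1 positive of the 5, had 0.22 ± 0.56 (SE, edgeR adjusted p = 0.926). The value of ENSBTAG00000053027 was -0.95 without ovoid IL6 replicate 2, -0.047 without ovoid control replicate 5, -1.16 without c6186 and -0.87 with quality weights (limma unadjusted p = 0.0263, adjusted p = 0.376). An interaction term tested whether the IL6 effect differed with shape. It called 0 of the 5 and 0% of all genes, with 0 of the 5 at an unadjusted p under 0.05 by edgeR or DESeq2, against 0.632% of all by edgeR and 0.973% by DESeq2. All 5 were negative with a median of -0.60, where 45.5% of all genes were positive with a median over all of -0.036, and ENSBTAG00000047698, with the smallest p, had -0.61 ± 0.87 (SE, edgeR unadjusted p = 0.494). Its value was -1.05 without tubular IL6 replicate 3, -0.17 without tubular control replicate 4 and -0.062 with the random block.

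Levels were next compared between shapes, which mark how far a conceptus had elongated. Among controls, tubular minus ovoid fold changes were positive for all 5 genes, with a median of 0.68 on the log2 scale, against 0.0046 over all genes, of which 50.8% were positive. The 4 conceptuses of c201 were all ovoid and the 2 of c8086 tubular, so a difference of shape is partly mixed with one of title code. Of the 5, 0 were called, as were 0% of all genes, and 0 had an unadjusted p under 0.05 by edgeR or DESeq2, against 1.64% of all by edgeR and 2.75% by DESeq2. ENSBTAG00000054099 had 0.87 ± 0.76 (SE, edgeR adjusted p = 0.9998) with a 95% interval of -0.72 to 2.46, and ENSBTAG00000053027 had 0.81 ± 0.74 (SE, edgeR adjusted p = 0.9998) with an interval of -0.74 to 2.36. Without tubular control replicate 4 the value of ENSBTAG00000054099 was 0.39, and without title code c201 that of ENSBTAG00000053027 was 0.31. ENSBTAG00000053469 had 0.68 ± 0.64, ENSBTAG00000047698 0.54 ± 0.62 and ENSBTAG00000053413 0.32 ± 0.54 (SE). The comparison shares its controls with those of IL6 above.

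Under IL6, the tubular minus ovoid fold changes were smaller, positive for 4 genes and negative for 1, with a median of 0.20, against -0.033 over all genes, of which 46.4% were positive. Of the 5, 0 were called, as were 0% of all genes, and 0 had an unadjusted p under 0.05 by edgeR or DESeq2, against 2.8% of all by edgeR and 4.46% by DESeq2. ENSBTAG00000053469 had 0.51 ± 0.63 (SE, edgeR unadjusted p = 0.429). It was at 1.29 without ovoid IL6 replicate 2, 0.23 without ovoid IL6 replicate 1 and 1.37 with the random block (limma unadjusted p = 0.0494, adjusted p = 0.935). ENSBTAG00000047698 had -0.071 ± 0.62 (SE), which turned to 0.11 without title code c6186. ENSBTAG00000053027 had 0.21 ± 0.72 (SE), which was -0.21 without title code c9007, 1.71 without c6186, 1.26 with the random block and 1.03 without ovoid IL6 replicate 2.

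Over both treatments 5 of 5 fold changes between tubular and ovoid conceptuses were positive, as were 46.5% of those of all genes. Of the 5, 0 were called, as were 0% of all, and 0 had an unadjusted p under 0.05 by edgeR or DESeq2, against 4.32% of all by edgeR and 6.72% by DESeq2. The smallest p was that of ENSBTAG00000053469, with 0.60 ± 0.45 (SE, edgeR adjusted p = 0.914). It was at 1.06 without ovoid IL6 replicate 2 (edgeR unadjusted p = 0.0289, adjusted p = 0.740) and 0.42 without ovoid IL6 replicate 1. With the random block it was 1.02 (limma unadjusted p = 0.0473, adjusted p = 0.992) and with quality weights 0.84 (limma unadjusted p = 0.00608, adjusted p = 0.367). The lowest value among settings other than leaving out a single conceptus was 0.37.

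**Figure D5:**
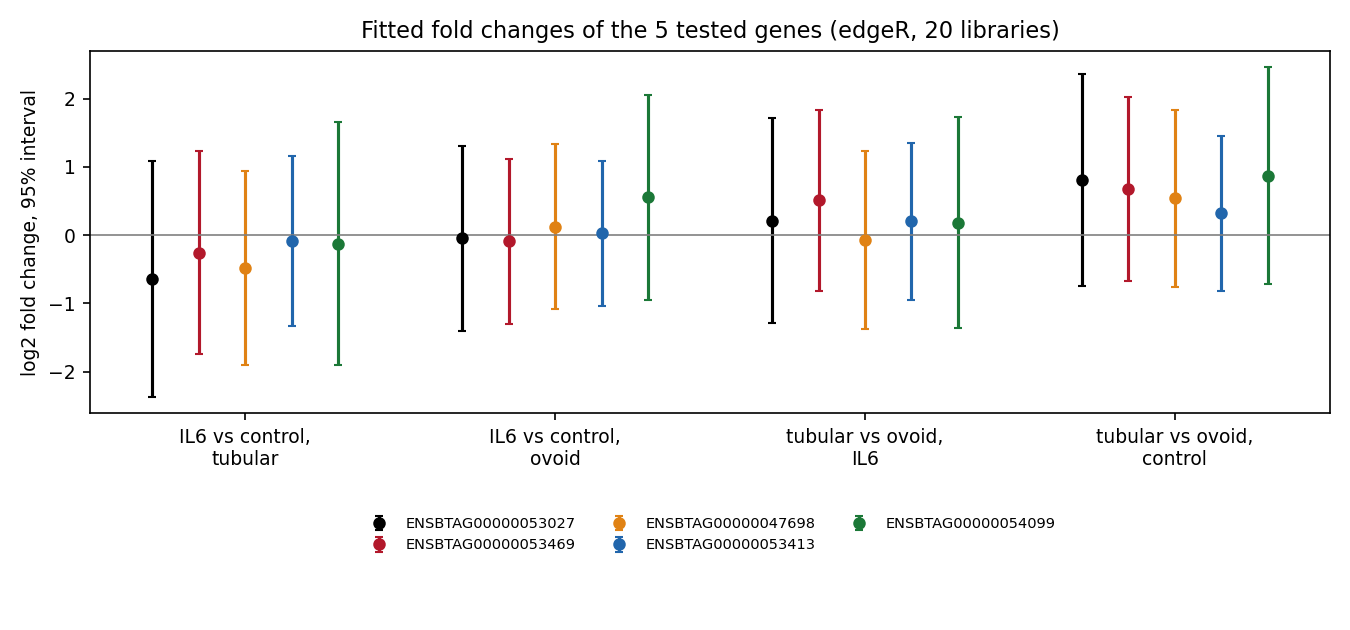
Fitted log2 fold changes of the 5 tested genes with 95% intervals (vertical axis) in the IL6 and shape comparisons (horizontal axis), from the edgeR model over 20 libraries. Every interval spans 0, and among controls all 5 points lie above 0 for tubular against ovoid conceptuses.

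Exact permutation tests on the 5 genes in the 4 comparisons of single groups, 20 tests in all, gave unadjusted p from 0.0381 to 0.996. With 1 test under 0.05, they gave as many as the 1 that would be expected with no difference. That test was ENSBTAG00000053469 between tubular and ovoid controls (exact permutation adjusted p = 0.571). Its difference of mean log2 levels was 1.48, against an edgeR log2 fold change of 0.68. It includes a count of 0 in ovoid control replicate 3, where a zero says little, and has no sex term. The ranges of the groups compared overlapped for all 5 genes. They did not overlap for 4.05% of all tested genes between tubular IL6 and tubular control, 0.215% between ovoid IL6 and ovoid control, 0.739% between tubular and ovoid IL6 and 0.296% between tubular and ovoid control conceptuses. The smallest p that these designs allow is 0.00216 for 6 against 6 and 0.00952 for 4 against 6. All these tests take conceptuses that share a title code as independent.

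Sex, given for each conceptus, was compared as male against female, with 10 conceptuses each. Males measured 145 ± 89.9 CPM and females 104 ± 65.9 CPM of ENSBTAG00000053027 (SD, n = 10 each), with a log2 fold change of 0.24 ± 0.53 (SE). The fold change was positive for 4 of the 5 genes, as for 50% of all. ENSBTAG00000054099 measured 2.41 ± 1.82 CPM in males and 1.27 ± 1.10 CPM in females, with the smallest p of the 5 at 0.74 ± 0.57 (SE, edgeR adjusted p = 0.854). That value was 0.18 without ovoid IL6 replicate 2 and 1.30 without tubular IL6 replicate 3. Of the 5 genes, 0 were called, against 0.0538% of all (8 genes), and 0 had an unadjusted p under 0.05 by edgeR or DESeq2, against 6.88% of all by edgeR and 9.77% by DESeq2, which called 0 of the 5 and 0.641% of all. ENSBTAG00000053413, the 1 negative gene, had -0.085 ± 0.39 (SE, edgeR adjusted p = 0.993).

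The annotated gene with the highest level of the window was not among the 18. ENSBTAG00000050661 (22575915 to 22583545, minus strand, 2 exons of 920 bases in all) failed the rule by its second exon and averaged 467 CPM, or 508 CPM per kb. It measured 417, 455, 546 and 285 CPM in tubular IL6 conceptuses, against 785, 806, 697 and 706 CPM in tubular controls. The ranges of the tubular groups did not overlap, as for 1.65% of all tested genes in that direction, and the exact permutation p of 0.0286 is the smallest that 4 against 4 can give. That test takes conceptuses that share a title code as independent, though treatment and title code cannot be told apart. The p is unadjusted, and the gene was named after its values were seen. In the fit over all libraries its log2 change was fitted at -0.77 ± 0.88 (SE, edgeR adjusted p = 0.9997). That error is shared with the ovoid groups, in which it ran from 21.5 to 995 CPM under IL6 and from 17.5 to 914 CPM in controls. Its ratio to ENSBTAG00000053027 over the 18 conceptuses was 2.26 to 5.70, with a median of 3.57, and its coefficient of variation was 0.805, also near that of ENSBTAG00000053027.

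The other 3 neighbouring genes with at least 10 counts in some library varied far less. Over the 18 conceptuses ENSBTAG00000025929, ENSBTAG00000052735 and ENSBTAG00000012375 ranged 2.46-fold, 2.60-fold and 2.51-fold from lowest to highest, against 8.38-fold for ENSBTAG00000053027, 5.35-fold for ENSBTAG00000053469 and 9.10-fold for ENSBTAG00000050661. Of these 4 neighbours none was called in any comparison. For IL6 against control over both shapes, ENSBTAG00000012375 had an unadjusted edgeR p under 0.05 (log2 fold change 0.40 ± 0.18, SE, edgeR adjusted p = 0.441), as did 10.7% of all tested genes. By DESeq2, 2 of the 4 had an unadjusted p under 0.05, against 14.1% of all. These were ENSBTAG00000012375 at 0.39 (DESeq2 unadjusted p = 0.0357) and, in the other direction, ENSBTAG00000025929 at -0.33 (DESeq2 unadjusted p = 0.0270).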

How the data were processed

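Deposited values are raw counts of fragments per Ensembl gene from featureCounts 2.0.1, counted over exons without strand on an Ensembl annotation of ARS-UCD1.2, per the file headers. Exon positions and the Length column, in bases, are other values of the deposited tables. Fragments marked as duplicates were skipped, per the file headers, which can lower the counts of short, abundant genes. The submitters' processing notes also list HISAT2, Picard and SAMtools. Settings of these tools: not given in the sources used here. Reads come from paired sequencing of 150 nucleotides, per the labels' protocols.

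Each library is a separate conceptus. Genes were kept with edgeR 4.0.16's expression filter by group, and 1 quasi-likelihood model with TMM factors, 4 group terms and sex was fitted to the 14875 genes kept in 20 libraries, with Benjamini-Hochberg adjustment over all of them. CPM were computed here, logs with a pseudocount of 0.5 CPM, and p-values adjusted at 0.05. DESeq2 1.42.0 and limma 3.58.1 in R 4.3.3, and Python 3.11.15 with scipy 1.17.1 and matplotlib 3.10.9, were also used. The model was tested on simulated data that held no title code effect, and no measure of power in these data is drawn from it. Intervals and errors cover the spread among these conceptuses, and floors counting error only.

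Genes named with values are the 8 of highest mean CPM and, in each comparison, the tested gene with the smallest p on each side. ENSBTAG00000050661 and the other neighbours were named after their values were seen. The genes and lists were chosen with earlier results of these data known. Lists fixed by symbol, for interferon receptors, interferon-stimulated genes, drivers of interferon tau, IL6 signalling and cell type markers, were not used here, since 0 of 27607 identifiers matched the gene table. No sequence is shown, as none was at hand.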

Additional observations from a re-analysis of the deposited data

Results flagged for a closer look

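In ovoid IL6 conceptuses, ENSBTAG00000054099 measured 5.28 CPM in replicate 2, and the next highest of the 6 conceptuses measured 1.89 CPM. The gap was 0.642 of the range of the group, beyond what is usual for 6 values. It was taken on CPM, not on the log2 values used for spread above, and depends on that scale. It was 1 of 24 sets of values looked at in this way, of which chance sets apart about 1 in 20. The same conceptus was also the highest of its group for ENSBTAG00000053027 and ENSBTAG00000053469, at 280.3 and 50.6 CPM.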

How the results depend on the processing

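Across 35 settings, the one reported included, 0 of the tested genes of the region were called in each of 274 counts. In the reported setting 0% of all tested genes were called in any comparison except sex, where 0.0538% were. There, 0.632% (interaction) to 10.7% (IL6 over both shapes) of all tested genes had an unadjusted p under 0.05. Shares over all genes in the other settings, DESeq2 aside, are not given here, so these counts do not set the region apart. Of 1369 fits of single genes of the region, 15 had an unadjusted p under 0.05, and the lowest adjusted p was 0.271 (ENSBTAG00000053469, IL6 against control over both shapes, limma with sample quality weights, log2 fold change -0.86). With fold changes as log2 values, ENSBTAG00000054099 for IL6 over both shapes (0.22) was -0.30 without title code c9007, -0.33 with the title code as a random block, -0.16 with quality weights, -0.037 without the sex term and -0.21 with counts summed per title code, and -0.31 to 0.44 with each conceptus left out. In ovoid conceptuses its IL6 value (0.56) was -0.077 with the random block and -0.21 to 0.89 with each conceptus left out. ENSBTAG00000053027 for IL6 in ovoid conceptuses (-0.044) was 0.35 without c9007, -1.58 without c6186, -1.11 with the random block, -0.85 with quality weights, -0.78 with summed counts and -0.93 to 0.43 with each conceptus left out. ENSBTAG00000053469 there (-0.091) was 0.21 without c9007, -1.15 without c6186, -1.20 with the random block, -1.02 with quality weights, 0.018 without both low ovoid libraries (a setting chosen after seeing the data) and -0.92 to 0.17 with each conceptus left out. For tubular against ovoid shape under IL6, ENSBTAG00000047698 (-0.071) was 0.11 without c6186, 0.21 with the random block, 0.31 with quality weights, 0.0035 with summed counts and -0.56 to 0.33 with each conceptus left out. ENSBTAG00000053027 (0.21) was -0.21 without c9007, -0.049 without both low libraries and -0.044 to 1.03 with each conceptus left out. ENSBTAG00000053413 for sex (-0.085) was -0.27 to 0.21 with each conceptus left out. The causes were not tested. Log2 differences of the summed level, with each conceptus left out, were -0.80 to -0.48 for IL6 in tubular, -0.85 to 0.22 for IL6 in ovoid, 0.36 to 1.35 for shape under IL6 and 0.70 to 1.47 for shape in controls. The labels give no replicate numbers that pair conceptuses between groups. The title code, shared by several conceptuses, was used as a random block in place of a pairing. Depth limits the genes below about 2 CPM, and all values in ovoid control replicate 3.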
